A study of Bos taurus with 15 samples.

Results

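Bovine oocytes that had been vitrified with cryoprotective agent at 6.6 M, with liquid helium as the coolant, were compared with fresh oocytes by RNA sequencing, gene by gene. The comparison holds 6 of the 15 libraries of the series, 3 of each group, chosen by their labels alone. Of 24616 genes in the deposited table, 8441 had enough counts across the 15 libraries to be tested. All oocytes came from Bos taurus ovaries and went through in vitro maturation (22 to 24 h, 38.5 °C), after which the cumulus cells were stripped with hyaluronidase. The helium group was then vitrified, while the fresh group was not. The series title calls the oocytes immature and the labels call them matured in vitro, so the stage cannot be settled here. The labels name neither the cryoprotective agents nor the animals, and they do not say whether a library held 1 oocyte or a pool. The other 9 libraries, 3 each from helium 5.6 M, nitrogen 5.6 M and nitrogen 6.6 M, entered the same model and served for direct comparisons at the end.

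Vitrification turns water into glass without ice, through rapid cooling in a concentrated cryoprotectant solution. Liquid helium is colder than liquid nitrogen. A fully grown oocyte makes little or no new RNA; it carries a store of maternal transcripts whose poly(A) tails are shortened or lengthened as meiosis proceeds, and it depends on mitochondria, redox enzymes and a spindle that are sensitive to cold and to osmotic stress. Levels here are shares of a library, so fewer molecules of a transcript and more RNA of other genes cannot be told apart.

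Depth separated the groups completely. Helium 6.6 M libraries held 6906940 to 7330690 counts and fresh libraries 1601519 to 2822837, so that group and depth cannot be told apart within these 6 libraries. Most oocyte markers had counts in every library. GDF9, a growth factor secreted by oocytes, stood at 601, 663 and 502 plain CPM (the count relative to the size of its library) in the helium libraries and 396, 626 and 235 in the fresh ones. The 34 oocyte markers in the table summed to 31277 to 41469 CPM per library, with 1 to 4 of them at 0 in a library. Markers of cumulus and granulosa cells, 46 in the table, summed to 534, 898 and 579.8 CPM in helium libraries 1 to 3 and to 505, 763 and 518 CPM in the fresh ones. FSHR, FOXL2, AMHR2, INHBB, COL3A1 and NOTCH3 had no count in any of the 6. Helium library 2 held the highest level of 26 of the 40 cumulus markers that had a count. Over all tested genes it held the highest level of 18.1%. Only 19 of the cumulus markers had enough counts to be tested, so these shares cover unlike sets. Some of the 26 were near 0, such as COL1A1 at 0.434 CPM in helium library 2 and 0 in the others. Of 20 blood and immune markers, 12 were at 0 in all 6 libraries and the sum did not exceed 34.7 CPM. Nothing in the labels shows that libraries came from separate animals or cultures, so the p-values cover library-to-library spread alone, and that spread may be technical.

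Between helium 6.6 M and fresh oocytes, 53 genes passed, which is 0.628% of those tested. Of these, 31 were higher in helium (0.367%) and 22 lower (0.261%). A gene passed at an adjusted p below 0.05 (quasi-likelihood test of edgeR, adjusted over all 8441 genes after Benjamini and Hochberg). The rises had a median log2 fold change of 1.12 and the falls of -1.63, where positive values mean higher in helium. Over all tested genes the median was -0.02, with 47.7% above 0. None of the 53 overlapped between groups: every helium library lay above, or every one below, all 3 fresh libraries. Such separation held for 16.3% of all tested genes, 680 upward (8.06%) and 696 downward (8.25%). Before adjustment 1304 genes (15.4%) had a p below 0.05, of which 600 were higher (7.11%) and 704 lower in helium (8.34%).

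The count of passing genes depended on single libraries. It was 5, 3 and 4 without helium library 1, 2 or 3, and 3, 598 and 29 without fresh library 1, 2 or 3. SNRPC and PRDX2 were among the genes that passed in all 6 of these fits. Each same-numbered pair of libraries deviated together, although helium library 3 did so more with fresh library 1 (correlation 0.294) than with fresh library 3 (0.227), and the replicate number was also fitted as a block. That fit called 27 genes (0.32%; 13.7% had an unadjusted p below 0.05), 19 of the 53 among them, and its adjusted p is given below wherever a gene did not pass. With a term for depth class (library totals above or below 4000000 counts) 0 genes passed in edgeR, the smallest adjusted p being 0.0730 and 852 genes having an unadjusted p below 0.05. Depth class varied within nitrogen 6.6 M alone, whose libraries held 1987931, 2613014 and 7392972 counts. The depth term, here and below, therefore rests on that group and its single deep library. All 53 kept their direction in every one of the 16 alternative settings in which they were tested.

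**Figure D1:**
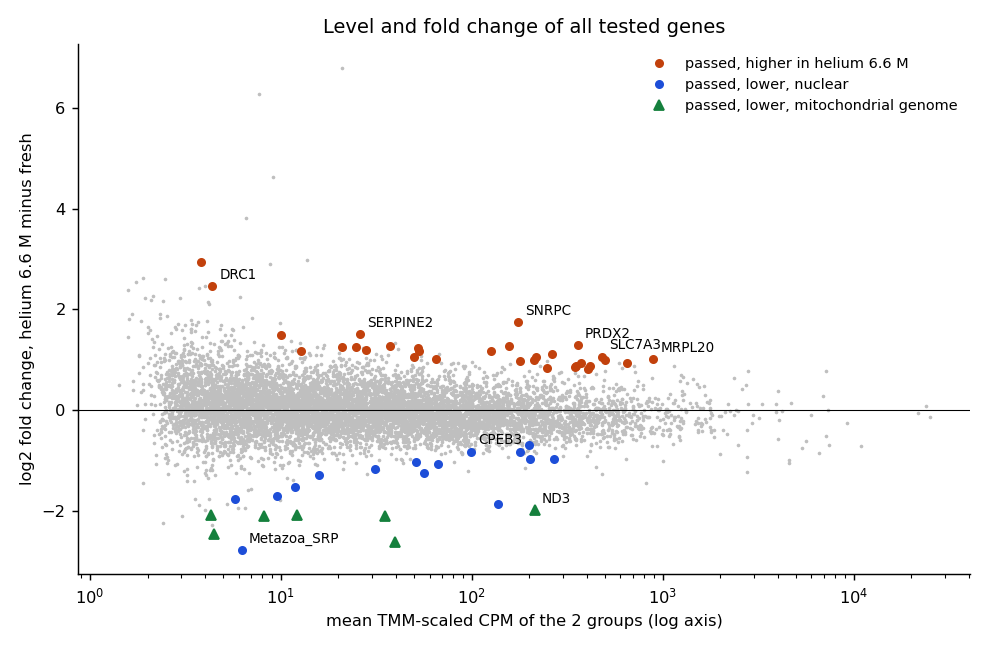
Each point is a tested gene, with its mean TMM-scaled CPM over the group means of helium 6.6 M and fresh on a log axis and its log2 fold change on the vertical axis. Orange points are the 31 genes that passed and were higher in helium, blue points the 15 nuclear genes that were lower, and green triangles the 7 mitochondrial-genome genes that were lower. SNRPC has a log2 fold change of 1.75, and the grey points near or above 4 are genes that did not pass, such as POSTN and RARRES2.

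The smallest p of all belonged to an RNA processing gene. SNRPC (chromosome 23, 8726525 to 8737237 on UMD3.1, as for all spans here), the C protein of the U1 particle, which finds the start of introns for splicing, had 286, 244 and 275 CPM in helium libraries 1 to 3 and 61.4, 77.9 and 99.0 CPM in fresh libraries 1 to 3. The lowest helium library thus lay well above the highest fresh library. Its log2 fold change was 1.75 ± 0.21 (SE; 3 libraries a group, as throughout), with an adjusted p of 5.56e-04. POP4 (chromosome 18, 40370765 to 40379995), a subunit of ribonuclease P and MRP that trims tRNA and rRNA precursors, had 353, 354 and 379 CPM in helium and 108, 181 and 209.9 in fresh. Helium libraries were nearly equal to each other, and fresh library 1 was the lowest of the 6. The log2 fold change was 1.12 ± 0.21 (adjusted p = 0.0232).

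Another 3 spliceosome genes rose by smaller amounts. SNRNP40, part of the U5 particle, had 211, 249 and 250.2 CPM in helium and 95.5, 130.2 and 136 in fresh, a log2 fold change of 0.97 ± 0.19. CWC15, a component of the activated spliceosome, had 433, 478 and 561 CPM against 262, 219 and 290.3, a log2 fold change of 0.93 ± 0.19. SRSF7, a serine and arginine rich splicing factor, had 422, 488 and 448 CPM against 223, 237 and 280.2, a log2 fold change of 0.87 ± 0.17. In each, all helium libraries were above all fresh libraries. Of 84 tested genes on the spliceosome list, these 3 and SNRPC rose and none fell, next to 0.367% and 0.261% of all tested genes. The gene lists, here and below, were chosen with earlier results of these data known. Counts over their members are therefore not independent of that choice. Of the 84, 37 had a fold change above 0 (44%, next to 47.7% of all tested genes). The list's median was -0.03, next to -0.02 for all tested genes. The most abundant members per length, SNRPD3 and MAGOH, had log2 fold changes of 0.19 and -0.40 and did not pass. With the replicate block, SNRNP40, CWC15 and SRSF7 had adjusted p of 0.0515, 0.0653 and 0.0753. With single libraries left out in turn, the highest adjusted p was 0.00931 for SNRPC, 0.0893 for POP4, 0.169 for SNRNP40, 0.166 for CWC15 and 0.166 for SRSF7.

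**Figure D2:**
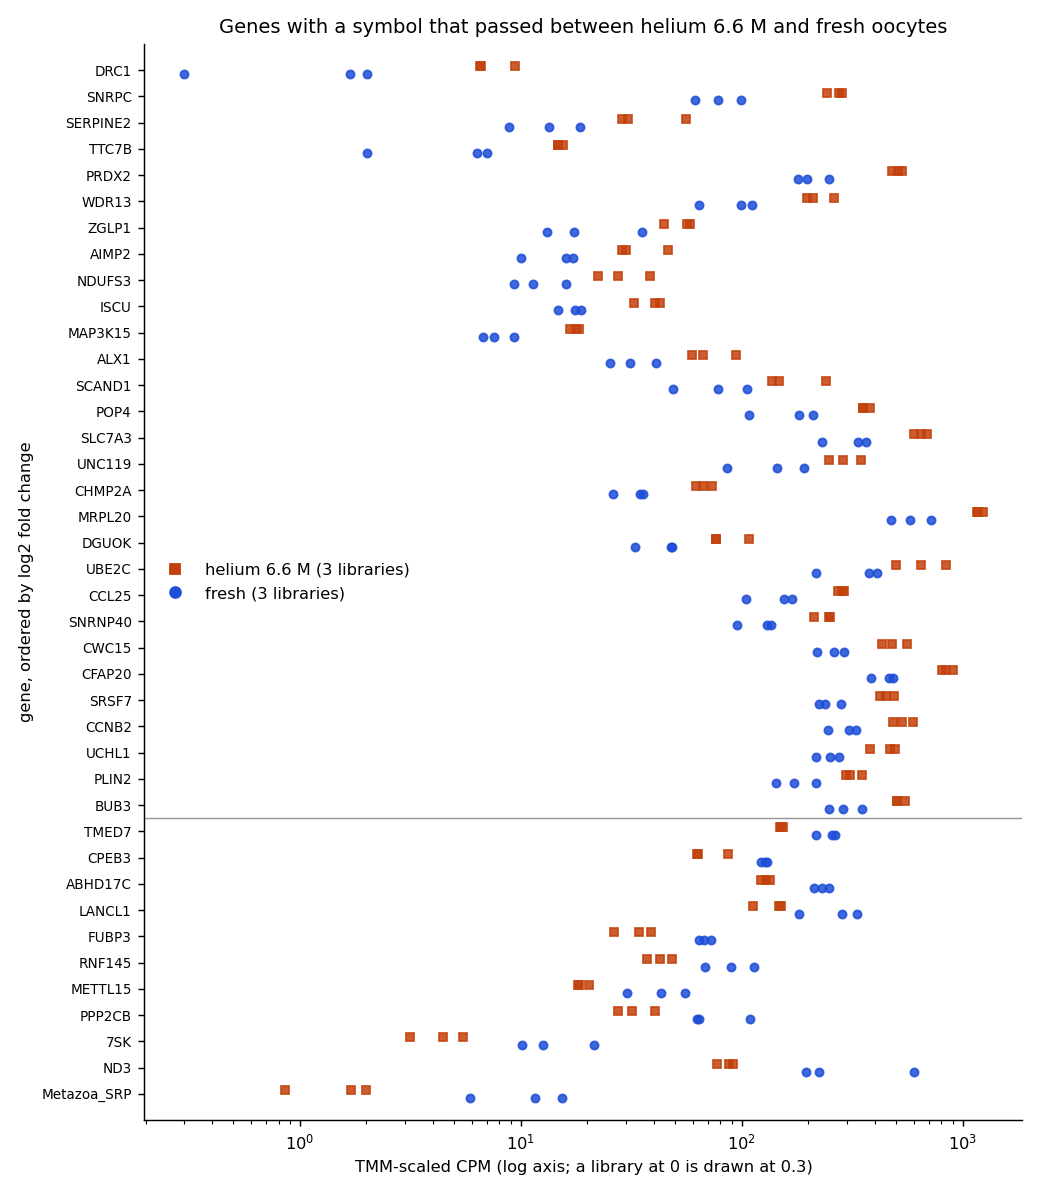
Each row is a gene, 40 of the 41 with a symbol that passed, ordered by log2 fold change, and the horizontal log axis gives TMM-scaled CPM; orange squares are the 3 helium 6.6 M libraries and blue circles the 3 fresh libraries. In every row the squares lie on 1 side of the circles: to the right for the 29 rises above the grey line and to the left for the 11 falls below it.

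Nuclear genes for mitochondrial and redox proteins also rose. PRDX2 (chromosome 7, 13845843 to 13848479), a peroxiredoxin that reduces hydrogen peroxide, had 532, 479.9 and 511 CPM in helium and 179, 198 and 247 in fresh. The helium libraries were close together, and even the highest fresh library, number 3, lay far below them. Its log2 fold change was 1.29 ± 0.17 (adjusted p = 0.00202), and its FPKM, which is scaled by gene length, averaged 523 against 202. NDUFS3 (chromosome 15, 78582186 to 78586701), a core subunit of respiratory complex I, had 22.4, 38.2 and 27.7 CPM against 9.35, 16.1 and 11.4, a log2 fold change of 1.25 ± 0.28 (adjusted p = 0.0444). In both groups library 2 was the highest for NDUFS3. ISCU (chromosome 17, 66685452 to 66691553), the scaffold on which iron-sulphur clusters are assembled, had 40.6, 42.8 and 32.6 CPM against 18.7, 17.6 and 14.7, a log2 fold change of 1.19 ± 0.23 (adjusted p = 0.0298). MRPL20 (chromosome 16, 52383424 to 52386462), a protein of the large mitochondrial ribosomal subunit, had 1176, 1229 and 1158 CPM against 475, 578 and 720.2. Its log2 fold change was 1.01 ± 0.20 (adjusted p = 0.0307). DGUOK, a mitochondrial kinase that salvages deoxyguanosine for DNA synthesis, had 76.7, 107 and 76.3 CPM against 32.7, 47.7 and 48.5, a log2 fold change of 1.00 ± 0.21. All these genes separated the groups, and none but PRDX2 passed with the replicate block. The blocked adjusted p was 0.0535 for NDUFS3, 0.0535 for ISCU, 0.0686 for MRPL20 and 0.0535 for DGUOK. Among the fits that left out a library, the highest adjusted p was 0.0332 for PRDX2, 0.209 for NDUFS3, 0.0946 for ISCU, 0.178 for MRPL20 and 0.178 for DGUOK.

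Most tested members of the lists around these genes had fold changes above 0, and few passed, next to 0.628% of all tested genes. Of 76 tested genes of the mitochondrial ribosome and of protein import, MRPL20 rose and none fell, 57 of 76 lay above 0 (75%, next to 47.7% of all tested genes) and the median log2 fold change was 0.32. The median lay between 0.11 and 0.41 across the alternative settings. The lists were not matched to all tested genes for length. With tested genes in 3 equal parts by length, 60.3% lay above 0 in the shortest part and 34% in the longest. Of 55 tested nuclear genes of oxidative phosphorylation, NDUFS3 rose and none fell, with 41 of 55 above 0 and a median of 0.21; that median turned to -0.09 with the depth term. ATP5J and COX7A2L, the most abundant of them per length, had log2 fold changes of -0.43 and 0.03 and did not pass. Of 31 antioxidant genes, PRDX2 rose, 21 of 31 lay above 0 and the median was 0.07, or -0.01 with the depth term. The glutathione transferase GSTM3 and PRDX1, its most abundant members, had log2 fold changes of 0.38 and 0.31 and did not pass. None of 36 genes of the citrate cycle, the pentose phosphate pathway and glycolysis passed, although 25 of 36 lay above 0 with a median of 0.24. That median was 0.12 without helium library 2, 0.12 without fresh library 1 and 0.41 without fresh library 2. The smallest p on that list belonged to the germ-cell lactate dehydrogenase LDHC (177, 203 and 183 CPM in helium, 83.5, 107 and 128 in fresh, adjusted p = 0.0831) and to PFKFB2 (log2 fold change -0.69, adjusted p = 0.0959).

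Of the mitochondrial genome, 1 protein-coding gene fell. All 13 were tested and all had a fold change below 0, with a median log2 value of -1.01. ND3, a complex I subunit (chromosome MT, 9823 to 10168), was the 1 that passed. It had 88.0, 77.1 and 91.5 CPM in helium and 603, 196 and 223 in fresh, a log2 fold change of -1.99 ± 0.34 (adjusted p = 0.0144). Fresh library 1 stood far above the other fresh libraries, and the adjusted p rose to 0.0787 at the most when a library was left out. ATP6 and COX3, the most abundant per length, had wide spreads: ATP6 had 6898, 3842 and 6202 CPM in helium and 15268, 1169.5 and 11207 in fresh, with fresh library 2 below every helium library. Their log2 fold changes were -0.71 ± 0.61 and -0.85 ± 0.39, and neither passed. Without fresh library 1 the list's median was -0.53, and with the depth term it was -0.02.

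Mitochondrial genes together took 4.21%, 2.79% and 3.76% of counts in helium libraries 1 to 3 and 8.66%, 4.14% and 5.12% in fresh libraries 1 to 3. Exact Clopper-Pearson 95% intervals, which cover counting error only, ran from 2.78% to 2.80% for helium library 2 and from 8.62% to 8.70% for fresh library 1. Means were 3.59% ± 0.727 (SD, n = 3) in helium and 5.97% ± 2.38 (n = 3) in fresh, a difference of -2.39 percentage points with overlapping groups (two-sided exact permutation p = 0.2, where 0.1 is the smallest possible). Without fresh library 1 the difference was -1.04 percentage points. Next to ND3, 6 features of the mitochondrial genome that have no symbol and span 66 to 72 bases passed as lower, with log2 fold changes from -2.63 to -2.09. The feature with the largest fall, ENSBTAG00000043582 (chromosome MT, 15726 to 15791), had 11.0, 7.83 and 14.1 CPM in helium and 112, 23.1 and 70.4 in fresh. It shares its first base with the neighbouring feature, and another pair of the 6 overlap as well, so that reads could be split between neighbours. With the replicate block 4 of the 6 passed.

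A pair of nuclear genes for small RNAs fell, each 1 of many copies. A gene with the symbol Metazoa_SRP, for the RNA of the signal recognition particle that guides secreted proteins to the endoplasmic reticulum, had 0.857, 1.70 and 1.99 CPM in helium and 15.4, 11.6 and 5.90 in fresh (chromosome 9, 2105887 to 2106183). Its log2 fold change was -2.78 ± 0.48 (adjusted p = 0.0159), the largest fall with a symbol. A gene with the symbol 7SK, for the RNA that holds the transcription elongation factor P-TEFb inactive, had 3.14, 4.44 and 5.45 CPM against 21.4, 12.6 and 10.1 (chromosome 23, 24977642 to 24977972), a log2 fold change of -1.71 ± 0.34 (adjusted p = 0.0301, or 0.0565 with the replicate block). Each is uncertain, since 23 genes of the table carry the symbol Metazoa_SRP and 117 carry 7SK, and how reads that fit several copies were counted is not given in the sources used here. The highest adjusted p with a library left out was 0.0929 for Metazoa_SRP and 0.206 for 7SK.

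The meiotic cell cycle list held 3 genes that rose. CCNB2, a B-type cyclin that activates CDK1 at entry into M phase, had 484, 594 and 529 CPM in helium and 244, 329 and 305 in fresh, a log2 fold change of 0.87 ± 0.17 (adjusted p = 0.0301). BUB3, a spindle assembly checkpoint protein, had 506, 548 and 505 CPM against 249, 352 and 286, a log2 fold change of 0.81 ± 0.18 (adjusted p = 0.0406). UBE2C, the conjugating enzyme that works with the anaphase-promoting complex, had 844, 497 and 646 CPM against 376, 217 and 409.6, a log2 fold change of 0.99 ± 0.22 (adjusted p = 0.0444). For UBE2C library 2 was the lowest of its group on both sides, whereas for CCNB2 and BUB3 it was the highest. Of 57 tested meiotic genes these 3 rose and none fell, next to 0.367% and 0.261% of all tested genes. Of the 57, 30 lay above 0 (52.6%, next to 47.7% of all tested genes) and the median was 0.01. CKS1B and CKS2, the most abundant members per length, had log2 fold changes of 0.28 and -0.21 and did not pass. None of 45 spindle and cytoskeleton genes passed, the closest being the kinase NEK2 (log2 fold change 0.78, adjusted p = 0.0787) and NUSAP1 (0.70, adjusted p = 0.115), and the abundant EZR and RHOA had 0.62 and 0.21. The replicate block gave adjusted p of 0.0763 for CCNB2, 0.0944 for BUB3 and 0.0565 for UBE2C. With a library left out, adjusted p reached 0.172, 0.206 and 0.204 in the same order.

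Protein turnover genes changed in both directions. UCHL1, a deubiquitinating enzyme abundant in oocytes, had 469.8, 493 and 380.2 CPM in helium and 216, 249.8 and 276 in fresh, a log2 fold change of 0.85 ± 0.18 (adjusted p = 0.0309). RNF145 (chromosome 7, 72843640 to 72906344), a ubiquitin ligase of the endoplasmic reticulum, fell, with 42.8, 48.3 and 37.2 CPM against 114, 89.5 and 68.3 and a log2 fold change of -1.07 ± 0.21 (adjusted p = 0.0301). CHMP2A (chromosome 18, 65960799 to 65963496), a subunit of the ESCRT-III complex that cuts membranes, had 66.7, 73.2 and 62.0 CPM against 26.0, 34.7 and 35.8, a log2 fold change of 1.05 ± 0.22 (adjusted p = 0.0317). The groups were separate for each gene. Of 74 ubiquitin and proteasome genes, UCHL1 and UBE2C rose and RNF145 fell, next to 0.367% and 0.261% of all tested genes. Of the 74, 44 lay above 0 (59.5%, next to 47.7% of all tested genes) and the median was 0.11. PSMA5 and PSMA7, abundant proteasome subunits, had log2 fold changes of -0.12 and 0.15 and did not pass. UCHL1 and CHMP2A did not pass with the replicate block (adjusted p = 0.0899 and 0.0535). With a library left out, adjusted p reached 0.178 for UCHL1, 0.202 for RNF145 and 0.178 for CHMP2A.

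Several regulators of transcription and signalling rose. WDR13 (chromosome X, 91784376 to 91791382), a nuclear WD-repeat protein, had 209, 262 and 198 CPM in helium and 64.1, 111 and 99.4 in fresh, a log2 fold change of 1.28 ± 0.23 (adjusted p = 0.0181). ZGLP1 (chromosome 7, 16065281 to 16068221), a GATA-like zinc finger protein needed for oogenesis in mice, had 58.1, 56.2 and 44.6 CPM against 17.4, 35.2 and 13.1, a log2 fold change of 1.28 ± 0.29 (adjusted p = 0.0444). Fresh library 2 was the closest to the helium libraries for both genes. ALX1 (chromosome 5, 14991697 to 15013533), a homeobox factor of craniofacial development, had 67.0, 93.9 and 59.6 CPM against 25.4, 40.7 and 31.2, a log2 fold change of 1.17 ± 0.26 (adjusted p = 0.0406). SCAND1 (chromosome 13, 65744269 to 65745100), a SCAN-domain protein, had 147, 241 and 137 CPM against 48.7, 106 and 78.4, a log2 fold change of 1.17 ± 0.27 (adjusted p = 0.0488). Library 2 was the highest of its group on both sides for ALX1 and SCAND1. UNC119 (chromosome 19, 20567270 to 20572913), a chaperone for lipid-modified proteins, had 287, 345 and 248 CPM against 86.1, 190.5 and 144, a log2 fold change of 1.06 ± 0.24 (adjusted p = 0.0428). TTC7B (chromosome 10, 103185307 to 103381020), a scaffold of the kinase complex that makes phosphatidylinositol 4-phosphate, had 14.7, 15.5 and 14.8 CPM against 2.00, 7.04 and 6.32, a log2 fold change of 1.48 ± 0.33 (adjusted p = 0.0406). Its span holds the small RNA gene SNORA11, and use of the strand in counting is not stated. TTC7B alone in this group failed with the replicate block (adjusted p = 0.0690). Leaving out a library took the adjusted p to 0.0893 for WDR13, 0.204 for ZGLP1, 0.204 for ALX1, 0.224 for SCAND1, 0.202 for UNC119 and 0.202 for TTC7B.

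Single genes of amino acid supply and lipid storage rose. SLC7A3 (chromosome X, 85010185 to 85015644), a transporter of arginine and lysine, had 692, 645 and 602 CPM in helium and 230.4, 363 and 335 in fresh, a log2 fold change of 1.06 ± 0.21 (adjusted p = 0.0301). AIMP2 (chromosome 25, 38576192 to 38584314), a scaffold of the multi-tRNA synthetase complex, had 28.7, 46.6 and 29.9 CPM against 10.0, 16.1 and 17.3, a log2 fold change of 1.25 ± 0.27 (adjusted p = 0.0406). PLIN2, which coats lipid droplets, had 349.8, 295 and 308 CPM against 143, 218 and 173, a log2 fold change of 0.83 ± 0.19 (adjusted p = 0.0444). Fresh library 1 was the lowest of the 6 for each of these. No other member of their lists passed, next to 0.628% of all tested genes. SLC7A3 was the 1 of 27 osmotic and amino acid transport genes to pass (median -0.10), AIMP2 the 1 of 23 aminoacyl-tRNA synthetase and scaffold genes (-0.01) and PLIN2 the 1 of 45 lipid and cholesterol genes (0.03). With a library left out these medians ran from -0.23 to 0.16, -0.04 to 0.05 and -0.08 to 0.07. The abundant members CLIC1 (0.29), RARS2 (0.04), DARS (0.14), FABP3 (0.11) and FABP5 (-0.13) did not pass. The block gave adjusted p of 0.0535 for SLC7A3, 0.0535 for AIMP2 and 0.0899 for PLIN2, and leaving out a library took them to 0.169, 0.204 and 0.209.

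The other rises with a symbol were the chemokine CCL25 (log2 fold change 0.98), the ciliary proteins CFAP20 (0.93) and DRC1 (2.46), and the stress kinase MAP3K15 (1.17). DRC1 and MAP3K15 were low, with group means below 5 FPKM, and the span of MAP3K15 overlaps that of PDHA1. DRC1 had 6.57, 9.39 and 6.52 CPM in helium and 0, 2.01 and 1.69 in fresh. ENSBTAG00000030915 and ENSBTAG00000048058, the rises without a symbol, had log2 fold changes of 2.94 and 1.22. The first had 2, 0 and 3 counts in the fresh libraries. Of these genes ENSBTAG00000048058 passed with the block, while the adjusted p of the others lay between 0.0535 for CCL25 and 0.102 for MAP3K15.

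SERPINE2 (chromosome 2, 112870323 to 112900274), a protease inhibitor that is also a cumulus and granulosa marker, had 30.4, 55.7 and 28.7 CPM in helium and 13.4, 18.6 and 8.85 in fresh. Helium library 2 stood above the others. The log2 fold change was 1.50 ± 0.32 (adjusted p = 0.0317), and it reached an adjusted p of 0.166 with a library left out. SERPINE2 was the 1 of 19 tested cumulus and granulosa markers that passed, next to 0.628% of all tested genes. Of the 19, 12 lay above 0 (63.2%, next to 47.7% of all tested genes), with a median of 0.12 that turned to -0.24 without helium library 2. STAR and HAS2, the most abundant markers per length, had log2 fold changes of -0.21 and -0.43 and did not pass. TIMP1, an inhibitor of matrix proteases, had 0, 129.6 and 6.68 CPM on the plain scale in helium libraries 1 to 3, and VIM, an intermediate filament protein of somatic cells, 0.429, 16.8 and 2.05. In the fresh libraries TIMP1 had 1.25, 0 and 0 plain CPM and VIM 0.624, 1.82 and 1.06. Other markers went the other way, and 7 of the 19 tested had a fold change below 0. GATM had 4.29, 3.91 and 2.59 plain CPM in helium and 7.49, 9.73 and 5.31 in fresh. The part of somatic cell RNA in any result was not tested.

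Genes that mark the oocyte itself mostly had fold changes above 0. UCHL1 was the 1 of 29 tested members that passed, next to 0.628% of all tested genes. Of the 29, 21 lay above 0 (72.4%, next to 47.7% of all tested genes) and the median log2 fold change was 0.39. It was 0.19 without fresh library 1, 0.19 without helium library 2 and 0.49 without fresh library 2. For 3 of the 29, every helium library lay above all fresh ones, next to 8.06% of all tested genes. BTG4, the adaptor for maternal mRNA deadenylation and the most abundant member per length, averaged 28435 FPKM in helium and 26753 in fresh, with a log2 fold change of -0.06. ACCSL followed with 0.11. Neither passed, and the groups overlapped for both. Most oocyte genes, among them GDF9 (0.47), ZP2 (0.42) and BMP15 (0.41), which encode secreted growth factors and a coat protein, did not pass either.

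**Figure D3:**
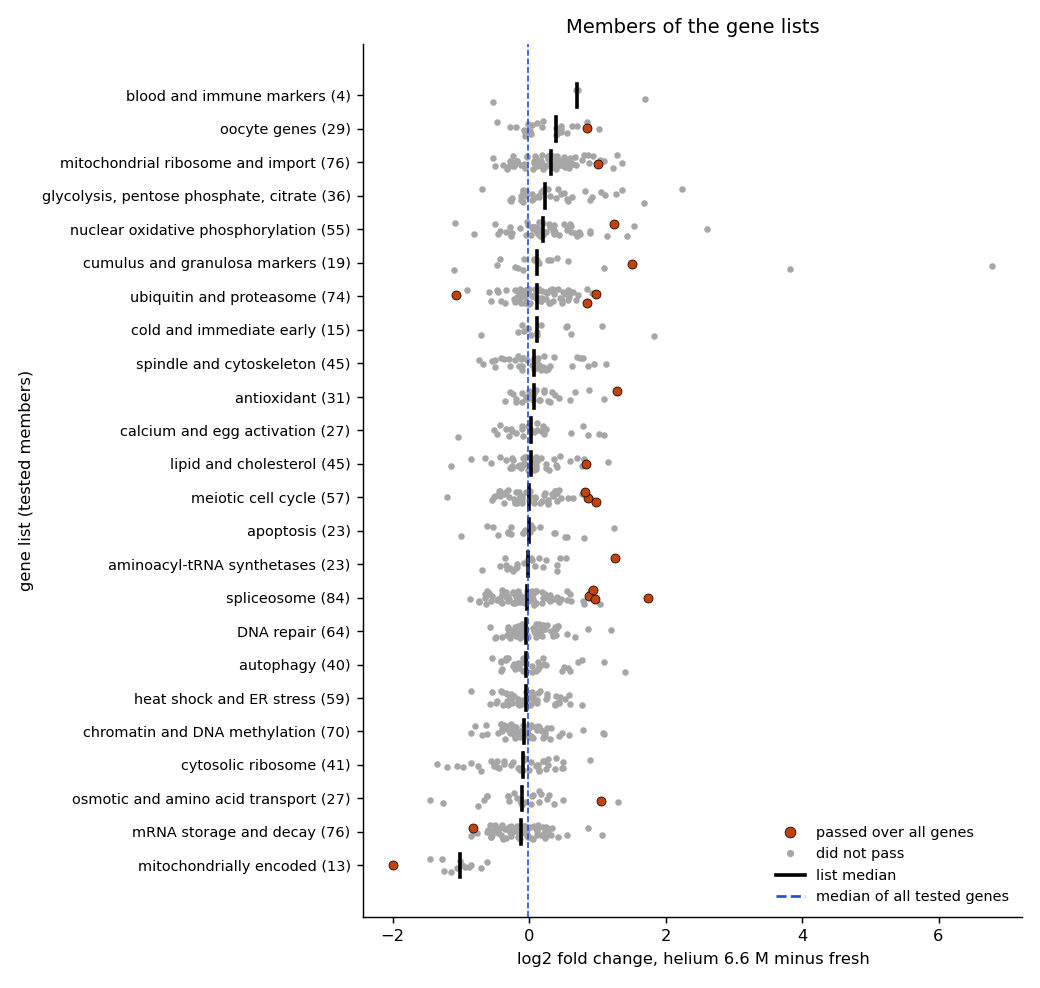
Each row is a gene list, with the number of tested members in brackets, and each point a member's log2 fold change (helium 6.6 M minus fresh); black bars are list medians, large orange points are members that passed, and the dashed line is the median of all tested genes (-0.02). The mitochondrially encoded genes form the lowest row, with a median of -1.01, and the oocyte genes have a median of 0.39.

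Nuclear genes for a phosphatase and for RNA-associated proteins fell. PPP2CB (chromosome 27, 26041259 to 26064654), a catalytic subunit of protein phosphatase 2A, had 40.4, 32.0 and 27.4 CPM in helium and 62.8, 64.3 and 109 in fresh, a log2 fold change of -1.25 ± 0.28 (adjusted p = 0.0444). METTL15 (chromosome 15, 59585680 to 59800570), a methyltransferase of mitochondrial ribosomal RNA, had 18.4, 20.4 and 18.1 CPM against 55.4, 43.2 and 30.3, a log2 fold change of -1.17 ± 0.26 (adjusted p = 0.0428). FUBP3 (chromosome 11, 100903350 to 100952801), a nucleic acid binding protein, had 34.4, 38.7 and 26.5 CPM against 72.8, 64.3 and 67.4, a log2 fold change of -1.04 ± 0.20 (adjusted p = 0.0301). The fresh libraries were close together for FUBP3 and spread for PPP2CB and METTL15. METTL15 and FUBP3 had adjusted p of 0.0565 and 0.0535 with the block. Leaving out a library took the adjusted p to 0.179 for PPP2CB, 0.265 for METTL15 and 0.166 for FUBP3.

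Smaller falls reached genes of membrane traffic and mRNA control. LANCL1 (chromosome 2, 98617457 to 98666531), a glutathione-binding protein, had 151, 112 and 147 CPM in helium and 284, 181 and 334 in fresh, a log2 fold change of -0.97 ± 0.21 (adjusted p = 0.0410). ABHD17C (chromosome 21, 27054892 to 27108980), which removes palmitate from proteins, had 129, 134 and 123 CPM against 230.4, 213 and 247, a log2 fold change of -0.84 ± 0.18 (adjusted p = 0.0346). TMED7 (chromosome 10, 4409118 to 4418520), a cargo receptor of the early secretory pathway, had 150.4, 149 and 153 CPM against 257, 216 and 263, a log2 fold change of -0.70 ± 0.15 (adjusted p = 0.0406). The 3 helium values of TMED7 were nearly equal. CPEB3 (chromosome 26, 13613121 to 13763563), which binds polyadenylation elements of stored mRNA, had 63.5, 86.6 and 62.6 CPM against 127, 122 and 129, a log2 fold change of -0.83 ± 0.18 (adjusted p = 0.0383). It was the 1 of 76 tested genes of mRNA storage and decay that passed, next to 0.628% of all tested genes. Of that list 25 of 76 lay above 0 (32.9%, next to 47.7% of all tested genes) and its median was -0.11, or 0.10 with the depth term. With the replicate block the adjusted p was 0.0565 for LANCL1, 0.0756 for ABHD17C, 0.140 for TMED7 and 0.0763 for CPEB3. With a library left out it reached 0.206, 0.172, 0.211 and 0.194 in that order. The other 4 nuclear falls had no symbol, among them ENSBTAG00000015156 (165, 184 and 194 CPM in helium, 459, 230.2 and 376 in fresh, log2 fold change -0.97). None of these 4 passed with the block, where their adjusted p ran from 0.0565 to 0.0899.

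No member passed on the lists for stress responses and cell death. The median log2 fold change was -0.05 over 59 heat shock and endoplasmic reticulum stress genes, -0.00 over 23 apoptosis genes and 0.11 over 15 cold-responsive and immediate early genes. With a library left out, the last of these ran from -0.20 to 0.51, being -0.10 without helium library 2 and 0.51 without fresh library 2, and the apoptosis median from -0.11 to 0.02. DDIT3, a stress-induced transcription factor, was abundant at 795 FPKM in helium and 549 in fresh, with a log2 fold change of 0.42 ± 0.19 (adjusted p = 0.302). HSPE1, the mitochondrial co-chaperonin, had -0.13, and the smallest p of that list went to DNAJA2 (-0.48) and SDF2L1 (0.78). RBM3, an RNA-binding protein induced by mild cold, had 9.28, 16.2 and 9.44 CPM in helium and 11.4, 7.04 and 16.4 in fresh, which overlap. EGR1 had 1.71, 28.2 and 3.19 CPM against 2.67, 4.52 and 2.11, with helium library 2 far above the others, and DUSP1 and GADD45A had log2 fold changes of 1.07 and -0.01. Of the apoptosis genes, CASP6 (0.06) and VDAC1, whose value rounds to 0, were the most abundant per length and BCL2L1 (-0.999) and BIRC3 (-0.62) had the smallest p.

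Calcium, chromatin, repair, ribosome, autophagy and blood lists had no passing member either. Medians were 0.03 over 27 genes of calcium handling and egg activation, -0.08 over 70 of chromatin and DNA methylation, -0.04 over 64 of DNA repair and -0.05 over 40 of autophagy. They were -0.08 over 41 cytosolic ribosomal proteins and 0.70 over 4 blood and immune markers. The ribosomal median was -0.31 without helium library 2, -0.23 without fresh library 1 and -0.76 with the depth term, and the blood median was 0.44 without helium library 2 and 0.19 after thinning. With a library left out, the medians ran from -0.04 to 0.15 for calcium, -0.18 to 0.04 for chromatin, -0.08 to 0.06 for repair and -0.08 to 0.09 for autophagy. Of the ribosomal proteins, RPS27A (-0.07) and RPLP0 (0.38) were the most abundant, and RPL37A (-1.20, adjusted p = 0.0643) and RPS12 (-1.05, adjusted p = 0.0802) came closest to passing. The calcineurin subunit PPP3CA (-1.04) and the sperm-binding partner CD9 (1.02) had adjusted p of 0.112 and 0.117. UHRF1, which recruits maintenance DNA methylation, had -0.28, SMARCA5 -0.40, the histone methyltransferase EHMT1 1.09 and the deacetylase SIRT1 -0.69. PCNA and RPA3, abundant replication and repair proteins, had -0.01 and -0.40, while the endonuclease APEX1 had 0.86 and the mismatch protein MSH6 -0.51. On the autophagy list GABARAPL2 had 0.14, TAX1BP1 -0.22, BNIP3 0.77 and PRKAA1 -0.55. LCP1 (-0.53), CD3E (1.71) and VWF (0.72) were low, the highest TMM-scaled value in any library being 15.4 CPM for LCP1 in fresh library 1.

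The fit with the block called 8 genes that had not passed without it. ATP8 of the mitochondrial genome fell, with 344, 192 and 307 CPM in helium and 998, 294 and 753 in fresh (log2 fold change -1.15, adjusted p = 0.0486 with the block). FAM193A (46.5, 68.1 and 57.3 against 12.0, 37.7 and 23.2 CPM, adjusted p = 0.0279) and the mitochondrial dioxygenase ALKBH7 (58.8, 95.8 and 65.3 against 22.7, 42.7 and 37.9 CPM, adjusted p = 0.0448) rose by log2 values of 1.31 and 1.10, with separate groups. The genes POSTN, MRO, RARRES2 and TNFAIP6 rose with the block in a different way. RARRES2, the chemokine-like chemerin, had 0, 48.0 and 4.26 CPM in helium and 0, 2.01 and 0 in fresh, and TNFAIP6, which binds the matrix of the expanding cumulus, had 0, 27.8 and 9.04 CPM and 0, 1.51 and 0.843. POSTN, a matrix protein, had 0, 34.8 and 10.9 and 0, 0.503 and 0, and MRO had 1.14, 39.3 and 6.12 and 0.668, 5.03 and 0.421. For all 4 helium library 2 was by far the highest and the groups overlapped. The fit of all 15 libraries without the block gave adjusted p from 0.162 to 0.326. The eighth gene, without a symbol, rose by 1.34.

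Some of the falls went with library depth across all 5 groups. ND3 had 616, 591 and 688 raw counts in the helium libraries and 903, 390 and 529 in the fresh ones, although the helium libraries were several times deeper. Its level split all 15 libraries into the 7 deep ones, in which it was lower, and the 8 shallow ones; the plot of level against library total shows this. The deep libraries are those of both helium groups and nitrogen 6.6 M library 3. Only 35 of 8441 tested genes split the libraries in this way in either direction, and 9 of the 22 falls, including ND3, Metazoa_SRP, TMED7 and 4 mitochondrial features, and 1 of the 31 rises, SERPINE2, were among them. All 53 already separated the deep helium 6.6 M libraries from the shallow fresh ones, as 16.3% of tested genes did. These counts are therefore not independent of how the genes were chosen. In the nitrogen groups, which were not used in the fold change, the deep library lay below all 5 shallow libraries for 10 of the 22 falls (45.5%), against 15.7% of all tested genes. It lay above all 5 for 9 of the 31 rises (29%), against 19.8%. These shares rest on 1 deep library, and the part of depth in any result was not tested. SNRPC, PRDX2 and CPEB3 did not split by depth. After all libraries were thinned to 1601519 counts, 22 genes passed, all of them among the 53.

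**Figure D4:**
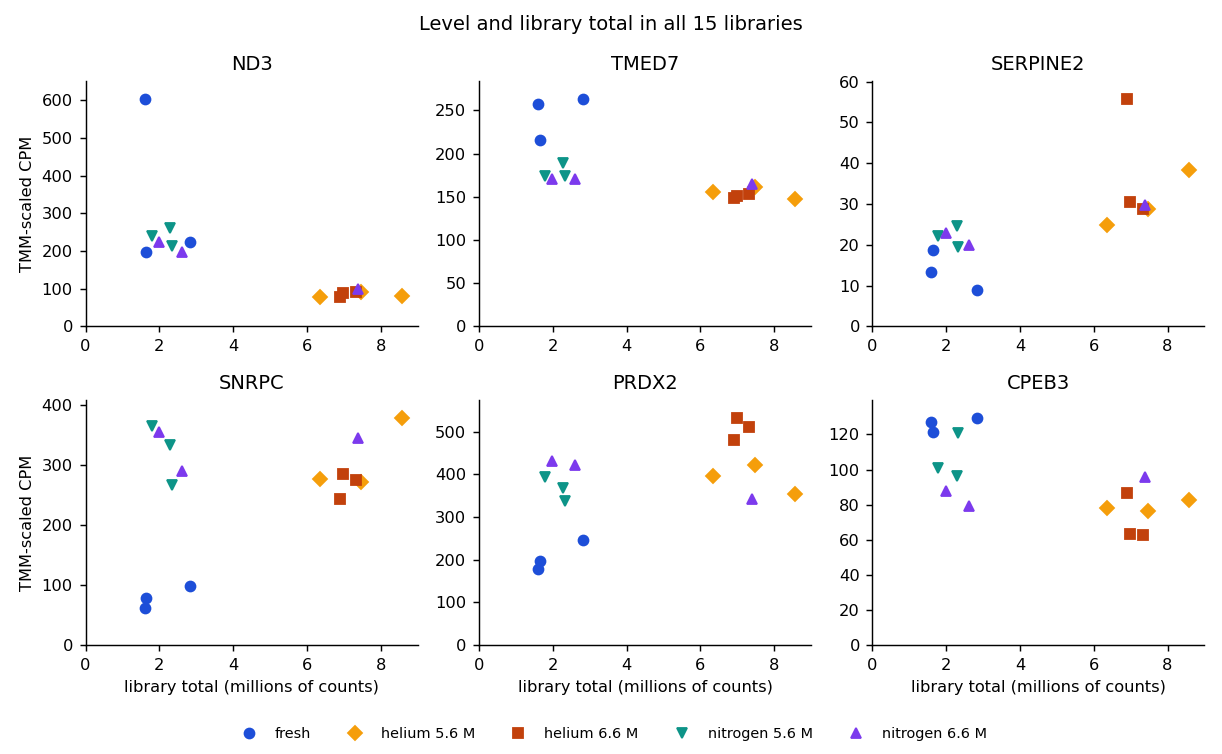
Each panel plots 1 gene's TMM-scaled CPM against the library total for all 15 libraries, with the 5 groups as symbols. ND3 and TMED7 are lower, and SERPINE2 higher, in all 7 deep libraries than in all 8 shallow ones, while for SNRPC the shallow nitrogen libraries lie with the deep ones, away from fresh.

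Fold changes also varied with gene length. With tested genes split by length into 3 equal parts, the shortest (66 to 1541 bases) had a median log2 fold change of 0.12, with 60.3% above 0, and held 23 of the rises and 15 of the falls. The middle part had -0.01 and 48.8%, and the longest part -0.14 and 34%. Genes that rose had a median length of 1222 bases, against 2041 for all tested genes. Falls had a median of 558.5 bases. Without the mitochondrial genes, the genes lacking a symbol, 7SK and Metazoa_SRP, the 9 remaining falls had a median of 2287 bases. Across the 8441 genes, which share libraries and are not independent, Spearman's rho of fold change with length was -0.239. The part of length in these results was not tested.

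**Figure D5:**
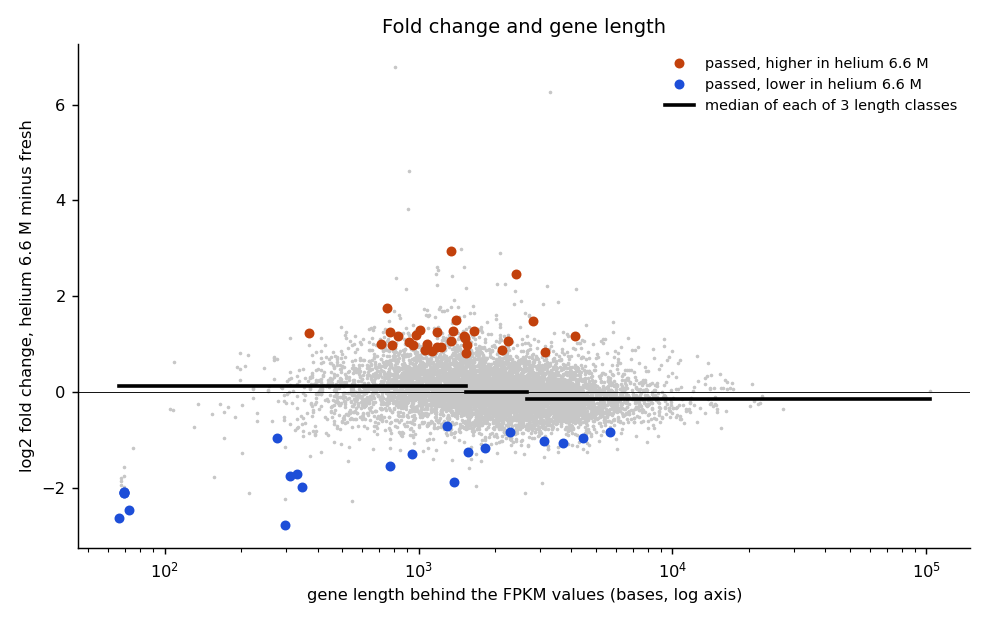
Each point is a tested gene, with the gene length used for its FPKM on a log axis and its log2 fold change (helium 6.6 M minus fresh) on the vertical axis; orange and blue points passed, and black bars are the medians of 3 equal parts by length. The bars step down from 0.12 to -0.14, and the blue points at the far left are mitochondrial features of 66 to 72 bases.

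The number of genes at 1 FPKM or more did not separate the groups. At that level, helium libraries 1 to 3 held 9241, 9662 and 9141 genes and fresh libraries 8554, 9743 and 8422. Means were 9348 ± 276 (SD, n = 3) and 8906 ± 728 (n = 3), with a two-sided exact permutation p of 0.4, where 0.1 is the smallest possible. Thinned to equal totals, the difference of 442 genes was 317 (exact permutation p = 0.5). At 0.1 FPKM the groups were separate and helium libraries had on average 1879 genes more than fresh ones (exact permutation p = 0.1, the smallest possible). Genes with any count after thinning numbered 11565, 12009 and 11516 in helium libraries 1 to 3. The fresh libraries then held 10351, 11412 and 10510. The part of depth in these differences was not tested.

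Differences between helium 6.6 M and its nearest vitrified groups depended on the setting. With the settings used above, none of the 8441 passed in edgeR against helium 5.6 M, the same coolant at lower concentration, where 169 genes (2%) had an unadjusted p below 0.05. None passed against nitrogen 6.6 M, the same concentration in the other coolant, where 678 genes (8.03%) did, while DESeq2 called 0 and 8 genes in these comparisons. In edgeR, 7 genes passed against nitrogen 6.6 M with the replicate block, fitted on the 6 libraries of these groups. There were 3 with the depth term and 67 without a filter on low counts, and 15 passed against helium 5.6 M without that filter. With the filter and no added term, the smallest adjusted p were 0.9997 and 0.0930. Against helium 5.6 M the smallest p with a symbol was that of FIGLA, an oocyte transcription factor, at 18.5 ± 6.58 CPM (SD, n = 3) against 7.61 ± 1.28 (log2 difference 1.27 ± 0.30). Against nitrogen 6.6 M it was 7SK, at 4.34 ± 1.16 against 16.7 ± 4.07 CPM (-1.91 ± 0.33), followed by the complex I subunit NDUFA1 (-1.24 ± 0.24, adjusted p = 0.119) and the urokinase receptor PLAUR (0.83 ± 0.16, adjusted p = 0.119). None of these values passed. Against nitrogen 5.6 M, where coolant and concentration both differ, 2 genes passed (0.0237%), among them ENSBTAG00000015156, which was lower in helium 6.6 M.

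Set against the same 3 fresh libraries, each vitrified group gave its own fold changes, and because the fresh libraries are shared these are not independent. The groups called 40 genes (0.474%) with helium 5.6 M, 1 (0.0118%) with nitrogen 5.6 M and 4 (0.0474%) with nitrogen 6.6 M. For SNRPC the log2 fold change was 1.75 in the helium 6.6 M group, 1.95 with helium 5.6 M, 2.01 with nitrogen 5.6 M and 2.05 with nitrogen 6.6 M. For WDR13 it was 1.28 in the helium 6.6 M group, 0.85 with helium 5.6 M, 0.80 with nitrogen 5.6 M and 0.98 with nitrogen 6.6 M. For MRPL20 it was 1.01 in the helium 6.6 M group, 0.80 with helium 5.6 M, 0.89 with nitrogen 5.6 M and 1.02 with nitrogen 6.6 M. For RNF145 it was -1.07 in the helium 6.6 M group, -1.07 with helium 5.6 M, -0.01 with nitrogen 5.6 M and -0.36 with nitrogen 6.6 M, closest to 0 with nitrogen 5.6 M. For SCAND1 it was 1.17 in the helium 6.6 M group, 0.69 with helium 5.6 M, 0.25 with nitrogen 5.6 M and 0.60 with nitrogen 6.6 M. ENSBTAG00000048058 was nearly at the fresh level with nitrogen 5.6 M, the values being 1.22 in the helium 6.6 M group, 0.72 with helium 5.6 M, -0.07 with nitrogen 5.6 M and 0.42 with nitrogen 6.6 M. Of the 53 genes, 25 had an unadjusted p below 0.05 in the direct comparison with nitrogen 6.6 M and 4 in that with helium 5.6 M, next to 8.03% and 2% of all tested genes. None passed after adjustment. The 53 were chosen on the same helium 6.6 M libraries, so these counts are not independent of that choice.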

How the data were processed

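Counts per gene and library were deposited by the authors as whole numbers without scaling, and FPKM values stand beside them, per the file headers. FPKM equalled the count scaled by gene length and library total within 0.1% in all 180473 values above 0, so both deposited columns hold 1 measurement. HISAT2 2.0.4, StringTie 1.3.0 and UMD3.1 are named in the submitters' processing notes, with no role given. Single-cell SMARTer cDNA amplification is given in the labels' protocols, and the sources used here do not give strand use, multi-mapping or read filters.

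Genes passed filterByExpr over 5 groups. Libraries were TMM-scaled and 1 robust quasi-likelihood fit of all 15 libraries was made in edgeR 4.0.16 (R 4.3.3), so the spread is shared by all groups. Contrasts were adjusted by Benjamini-Hochberg over 8441 genes at a threshold of 0.05. CPM values are TMM-scaled except for the sums over marker lists and the levels of GDF9, TIMP1, VIM, GATM and COL1A1, which are plain CPM. The scripts were tested on simulated data. Replicates were not copies of each other (chi-square per degree of freedom at least 9.94).

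The 3 same-numbered pairs of helium 6.6 M and fresh deviated together, with correlations of 0.147, 0.306 and 0.227 of their deviations from the group means. The 6 pairs with unequal numbers ran from -0.445 to 0.294. No label says what the number marks.

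Members and the 24 gene lists (1496 symbols, 1299 in the table) were chosen with earlier results of these data known. Counts cover all genes tested, and 1 gene that passed is not reported here. Library values were planned for up to 15 of the largest rises and falls each, with a symbol and at least 5 FPKM in the higher group. Only 12 falls with a symbol passed. For each list, passing members, the 2 most abundant and, where none passed, the 2 with the smallest p are named. Some cell type markers, TIMP1, VIM and GATM among them, were named in addition. Single values per library were compared by two-sided exact permutation tests. Alternatives covered scaling, filters, thinning, depth, DESeq2 1.42.0, the libraries fitted and the block. No sequence is shown, since none was used here.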

Additional observations from a re-analysis of the deposited data

Results flagged for a closer look

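Helium 6.6 M and nitrogen 5.6 M oocytes, which differ in coolant and in concentration, differed in 2 of 8441 genes (0.0237%) by a direct test in edgeR, a comparison added after the data had been seen. Among them was ENSBTAG00000015156, a gene of 277 bases without a symbol (chromosome 21, 57388583 to 57395511). It was lower in helium 6.6 M, at 181 ± 14.5 against 433 ± 25.8 CPM (SD, n = 3) in nitrogen 5.6 M, a log2 difference of -1.26 ± 0.21 (SE; adjusted p = 0.0368). It also passed as lower against fresh oocytes, but not with the replicate block (adjusted p = 0.0899). With a library left out, its adjusted p against fresh reached 0.280. The helium libraries were the deeper ones, with nitrogen 5.6 M totals of 1790900 to 2333545 counts, so that depth, coolant and concentration all differ between these groups. Over the other groups, the deep nitrogen 6.6 M library 3 had 445 CPM and the shallow libraries 1 and 2 had 368 and 377, while the 6 helium libraries, all deep, lay between 152 and 199. With the depth term the log2 fold change against fresh was -1.23 (adjusted p = 0.378), next to -0.97 without it.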

How the results depend on the processing

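Against fresh oocytes, the 31 rises and 22 falls became 163 and 76 without a filter on low counts, 119 and 160 with DESeq2 (2291 genes without an adjusted p), 15 and 7 after thinning to the smallest total, 1 and 1 with the 6 libraries alone, and 0 and 0 with the depth term. With 1 library left out they ranged from 2 to 258 rises and from 1 to 340 falls, both extremes upward coming without fresh library 2. Size factors of the RLE kind, a minimum of 10 counts in 3 libraries and the removal of mitochondrial genes kept the counts within 1.5 times. The cause of these shifts was not tested. No direction was reversed for any of the 53 genes.

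With the replicate block, fitted on the 6 libraries alone, 17 genes rose and 10 fell. These became 10 and 7 when genes were filtered again on the 6 libraries, a setting chosen after seeing the data. Against nitrogen 6.6 M the pairs shared only a number (correlations 0.0845, -0.269 and 0.247), and the replicate block called 1 higher and 6 lower. That block was likewise fitted on the 6 libraries of these groups, which called 0 genes without it. Against helium 5.6 M no paired analysis was possible, because helium 5.6 M and 6.6 M share a single replicate number.

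Against helium 5.6 M, 14 genes were higher and 1 lower without a filter, and 0 in all other settings. Against nitrogen 6.6 M there were 38 and 29 without a filter, 2 and 1 with the depth term, 1 and 7 with DESeq2, and 0 to 1 lower with 1 library left out, the 1 coming without nitrogen library 3. The mitochondrial difference ranged from -3.30 to -1.04 percentage points, and that in genes detected from 199.5 to 860.0, with 1 library left out.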
